A study of Rattus norvegicus with 50 samples.

Results

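This comparison asks what a single injection of galactosamine added to the liver of rats that were already taking nevirapine. The combination group had 3 rats (rat 73, rat 84 and rat 87), killed 8 d after an intraperitoneal dose of 750 mg/kg galactosamine and after 15 d of oral nevirapine. The nevirapine group had 3 rats (rat 43, rat 44 and rat 45), with 15 d of oral nevirapine and a sham injection 8 d before death. Livers of both groups were taken 2 h after the 16th oral dose. By the treatment protocol nevirapine was given at 150, then 100, then 75 mg/kg, with galactosamine on day 7, whereas the design text names 75 mg/kg alone for the rats on nevirapine only, so whether the early doses were equal cannot be told from the labels. In 1 place the design text also calls the rats given both drugs the nevirapine group. All rats were female Brown Norway rats (Bn/Crl strain 091, MHC haplotype RT1n) of 9 to 11 weeks. The 6 arrays, 1 per rat, were selected by their sample titles out of 50 in the series. Of 31099 probe sets, 20826 mapped to 1 gene symbol and gave 14217 genes, each read from its brightest probe set. The study was made to follow the 8 d in which fibrosis formed after the combination and not after either drug alone. Further groups of 3 rats without nevirapine, killed 8 d after galactosamine or 8 d after vehicle, are set beside the comparison. A group of 3 vehicle rats of 15 d gives the level without either drug.

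Galactosamine is a sugar amine that depletes hepatocytes of uridine nucleotides and kills part of them, after which the liver usually regenerates. Nevirapine is an antiretroviral drug that induces hepatic drug metabolism and can cause immune-mediated liver injury in patients. In liver fibrosis, stellate cells turn from vitamin A storage to the making of fibrillar collagen, driven by TGF-beta and PDGF signals, while monocyte-derived macrophages enter the scar and both build and digest matrix.

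Hepatocyte markers were bright in all 6 livers. Albumin (Alb) was at log2 14.16, 14.15 and 14.17 in the combination rats and at 14.18, 14.16 and 14.16 in the nevirapine rats, and its difference was -0.01 (limma adjusted p = 0.943), but these values lie at the top of the arrays' scale, where a difference could be hidden. Transthyretin (Ttr), apolipoprotein A1 (Apoa1) and the nuclear receptor Hnf4a did not pass the test either, with log2 differences of -0.07, 0.25 and -0.52 (limma adjusted p = 0.533, 0.156 and 0.0831). The hepatocyte factor Onecut1 was at 9.49, 8.03 and 8.98 in the combination rats and at 10.66, 10.09 and 10.67 in the nevirapine rats (-1.64, limma adjusted p = 0.0757). The combination rats were less alike than the nevirapine rats. The SD of a gene over 3 rats had a median of 0.12 in the combination group and 0.09 in the nevirapine group. RNA quality was read from GAPDH, whose 3′ probe set exceeded its 5′ probe set by 0.1971 to 0.2109 in the nevirapine rats. The combination rats lay on both sides of this range, at 0.334 in rat 73, 0.0494 in rat 84 and 0.0756 in rat 87. Precision is limited by the few arrays.

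Limma called 1763 of 14217 genes (12.4%) at an adjusted p under 0.05. Of these, 1323 were higher with added galactosamine (9.31% of the genes tested) and 440 were lower (3.09%). Counts of list members given below stand against these shares. The fitted change passed log2 1 in 340 of the higher calls and log2 -1 in 22 of the lower calls. The median over all genes was 0.02, and the rats of the groups did not overlap in 39.2% of the genes. After cyclic loess normalization the split of higher and lower calls was 1121 and 648. Without rat 87, the combination rat farthest from the nevirapine mean in 833 of the called genes, 1023 genes were called, 812 higher and 211 lower. All values below are log2 array signals or log2 differences, given as combination minus nevirapine ± the standard error of the fit (n = 3 and 3). A level of log2 4.37, reached by the brightest of 27 Bacillus control probe sets, was taken as background. Where 1 group's mean lay under it, the size is given as a lower bound of the fold against that level. Rankings, counts by size and list medians use the fitted log2 changes of all genes, for which signals under background were taken as deposited.

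Periostin (Postn), a matricellular protein of scars, headed the ranking by fitted change. It stood at 7.80, 6.58 and 8.77 in the combination rats and at 2.43, 2.82 and 2.52 in the nevirapine rats. It was at least 10.2-fold higher (adjusted p = 2.02e-05). Macrophage elastase (Mmp12), whose lower bound was above that of Postn, was at 9.07, 7.36 and 8.95 in the combination rats and 3.96, 3.94 and 4.06 in the nevirapine rats, at least 17.1-fold higher (adjusted p = 2.93e-08). In each of these genes the lowest combination rat was far above the highest nevirapine rat. Probasin (Pbsn), a secreted protein known from the rat prostate, differed between rats of the combination group. It was at 8.36 in rat 84 and 8.07 in rat 87 but at 3.56 in rat 73, against 3.17 to 3.22 in the nevirapine rats. With only the arrays of the compared groups in the fit its adjusted p was 0.0681.

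The remaining 12 of the 15 largest rises held matrix, immune and mitotic genes. The matrix genes were asporin (Aspn, 3.32 ± 0.55), the collagen VI chain Col6a5 (3.16 ± 0.45), lysyl oxidase (Lox, at least 6.71-fold) and the microfibril protein Mfap4 (at least 6.55-fold). Immune genes among them were Gpnmb (2.96 ± 0.35), a glycoprotein of lipid-loaded macrophages, the mast cell protease Mcpt10 (at least 1.89-fold) and the inhibitory myeloid receptor Lilrb4 (at least 4.38-fold). Ect2 (at least 3.99-fold), which drives cytokinesis, the phosphatase Cdkn3 (at least 3.93-fold) and the chromatin remodeller Hells (at least 3.13-fold) act in dividing cells. Protocadherin 17 (Pcdh17, at least 3.83-fold) and Cyp7a1 (2.53 ± 0.69), the rate-limiting enzyme of bile acid synthesis, completed the list. Gpnmb was at 10.50, 9.23 and 10.45 in the combination rats, against 7.08, 7.03 and 7.18 in the nevirapine rats. Cyp7a1 was at 8.49, 10.33 and 10.50 in the combination rats, against 7.12, 7.60 and 7.02 in the nevirapine rats, so that rat 73 lay lowest. The Cdkn3 call was lost without rat 87 (adjusted p = 0.0911) and that of Cyp7a1 without rat 84 or rat 87 (adjusted p = 0.0616 and 0.0823).

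**Figure D1:**
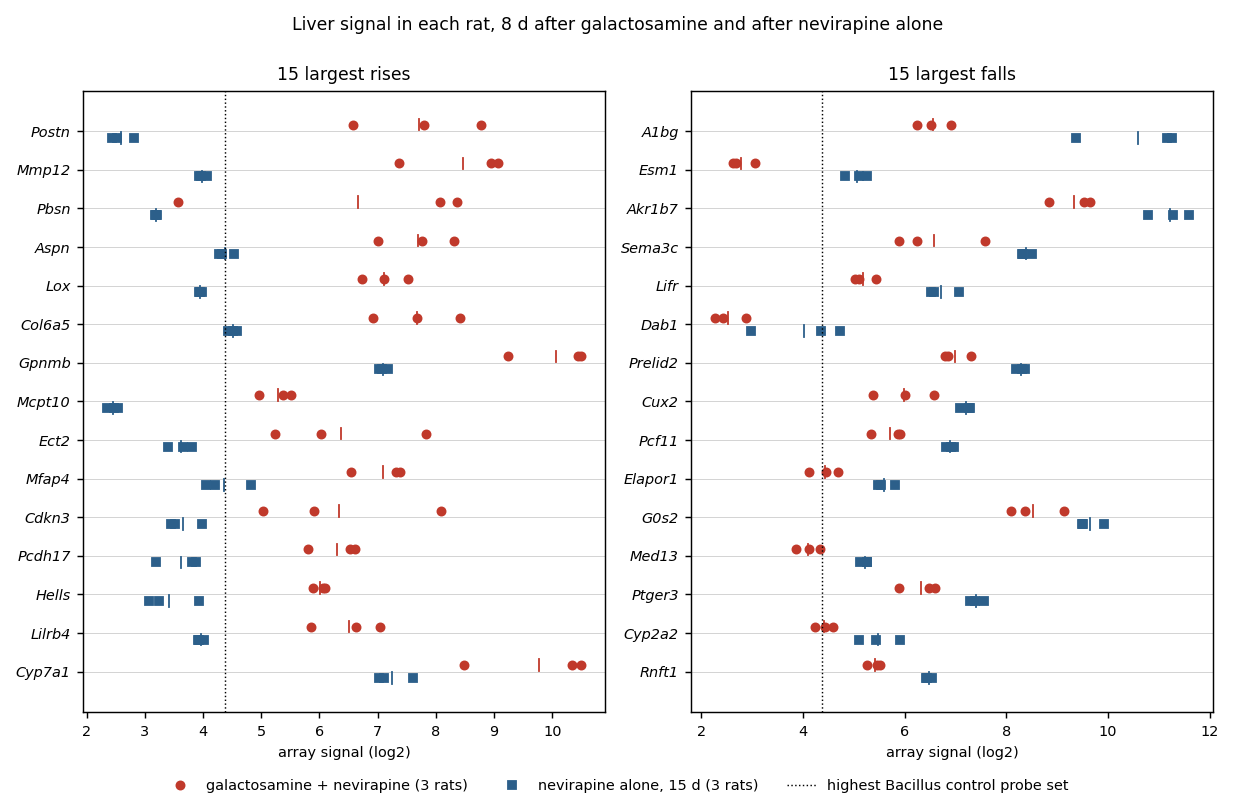
Array signal (log2, horizontal axis) of the 15 genes with the largest fitted rise and the 15 with the largest fitted fall, with 1 point per rat, the combination above nevirapine for each gene, and a short line at each group mean. The dotted line is the highest Bacillus control probe set at log2 4.37. Pbsn has 1 combination rat at 3.56 beside the nevirapine rats.

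Genes of the scar matrix rose in blocks. Of 9 fibrillar collagen chains measured, 5 were higher and 0 lower (median 1.08), and of 22 genes of basement membrane and microfibrillar collagens 16 were higher and 1 lower (median 0.70). The leading fibrillar chain was Col5a2, at 8.98, 8.84 and 9.57 in the combination rats and 6.79, 6.57 and 6.76 in the nevirapine rats. Its change was 2.42 ± 0.42 (adjusted p = 9.82e-05, 5.36-fold). The chains of collagen I, the main collagen of scars, rose as well, Col1a2 by 2.21 ± 0.52 and Col1a1 by 1.92 ± 0.40. Col1a1 varied little within a group, at 7.82, 7.75 and 7.90 in the combination rats and at 5.90, 5.81 and 6.01 in the nevirapine rats. Collagen III (Col3a1, 1.75 ± 0.36) and Col5a1 (1.08 ± 0.19) completed the 5. The chains of collagen VI, which forms beaded filaments around cells, rose by 2.11 ± 0.35 (Col6a2), 1.87 ± 0.31 (Col6a1) and 1.70 ± 0.33 (Col6a3). Another probe set of Col6a2 changed by 0.26 and one of Col6a3 by 0.06. The lower call was the laminin chain Lama1 (at least 1.10-fold lower), named after its value was seen, which was lost without rat 87 or rat 43 (adjusted p = 0.0721 and 0.0568).

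Among matrix glycoproteins and proteoglycans 13 of 31 were higher and 0 lower (median 0.71), with Postn, Aspn and Mfap4 in front. Lumican (Lum), a proteoglycan that spaces collagen fibrils, missed the threshold although its rats did not overlap. It was at 8.28, 7.65 and 8.77 in the combination rats and at 6.08, 6.58 and 5.89 in the nevirapine rats (adjusted p = 0.0822). Decorin (Dcn) rose by 1.66 ± 0.50 (adjusted p = 0.0216), a call lost without rat 84, 87, 43 or 45 (adjusted p up to 0.102). Crosslinking was led by the lysyl oxidases. Of 16 genes of collagen processing 3 were higher (18.8%, against 9.31% of all genes), 0 were lower and 13 did not pass. The 3 were Lox, Loxl1 (2.21 ± 0.30) and the lysyl hydroxylase Plod2 (1.94 ± 0.30). Lox was at 6.73, 7.10 and 7.51 in the combination rats and at 3.95, 3.93 and 3.98 in the nevirapine rats, at least 6.71-fold higher.

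Matrix-degrading enzymes and their inhibitors rose side by side, with 9 of 27 higher and 0 lower. Gelatinase A (Mmp2) was at 7.57, 8.26 and 8.21 in the combination rats and at 6.00, 5.83 and 5.71 in the nevirapine rats (2.17 ± 0.35, adjusted p = 3.19e-05). Another Mmp2 probe set changed by -0.14. Tissue plasminogen activator (Plat) rose by 1.43 ± 0.33, and the metalloproteinase inhibitors Timp2 and Timp1 by 1.42 ± 0.30 and 1.35 ± 0.36. Another Timp2 probe set changed by 0.04. The call of Timp1 was lost without rat 87 (adjusted p = 0.0712).

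Within the TGF-beta pathway 10 of 31 genes were higher and 1 lower (32.3% and 3.23%, against 9.31% and 3.09% of all genes), with a median of 0.32. Ccn2, a matricellular TGF-beta target, was at 8.32, 9.33 and 8.74 in the combination rats and at 6.55, 6.92 and 6.99 in the nevirapine rats (1.98 ± 0.41, adjusted p = 0.000769). Ltbp1, which anchors latent TGF-beta in the matrix, rose by 1.76 ± 0.26, the ligand Tgfb3 by 1.47 ± 0.19 and the decoy receptor Bambi by 0.96 ± 0.16. The ligand Tgfb1, named after its value was seen, did not pass the test, with a difference of 0.12 and a 95% interval of -0.23 to 0.48. The activin chain Inhbb, the 1 lower call, was at 3.88, 3.79 and 3.53 in the combination rats and 4.31, 4.21 and 4.83 in the nevirapine rats, and it lost its call without any rat but rat 44 (adjusted p up to 0.254). Among PDGF and other fibrogenic ligands and receptors 7 of 28 were higher and 1 lower (25.0% and 3.57%, with a median of 0.07). The PDGF receptors led, Pdgfrb by 1.88 ± 0.25 and Pdgfra by 1.12 ± 0.20. The other probe sets of Pdgfrb changed by 0.22 and 0.47, and the mean of its probe sets by 0.86 (adjusted p = 2.12e-05). The fall was that of Igf1, described with the growth hormone axis.

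Of 28 stellate cell and myofibroblast markers 9 were higher and 0 lower (median 0.42). In bulk liver, more cells of a type and more RNA per cell cannot be told apart. The summed linear signal of these 28 markers was 5184 to 5843 in the combination rats and 3585 to 3649 in the nevirapine rats. Pdgfrb was at 6.49, 6.85 and 7.38 in the combination rats and at 5.08, 5.02 and 5.00 in the nevirapine rats. Cytoglobin (Cygb), a globin of stellate cells, rose by 1.57 ± 0.23 and Lrat, the retinol esterifying enzyme of quiescent stellate cells, by 1.19 ± 0.25. Vimentin (Vim) rose by 1.31 ± 0.43 (adjusted p = 0.0376), a call lost without each rat except rat 84 (adjusted p up to 0.156). Smooth muscle actin (Acta2), the classic marker of myofibroblasts, did not follow. It was at 5.49, 5.57 and 5.50 in the combination rats and at 5.31, 5.63 and 5.66 in the nevirapine rats, a difference of -0.01 with a 95% interval of -0.35 to 0.33. Transgelin (Tagln) and desmin (Des) differed by 0.53 and 0.43 (adjusted p = 0.529 and 0.3). These 3 genes were named after their values were seen.

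**Figure D2:**
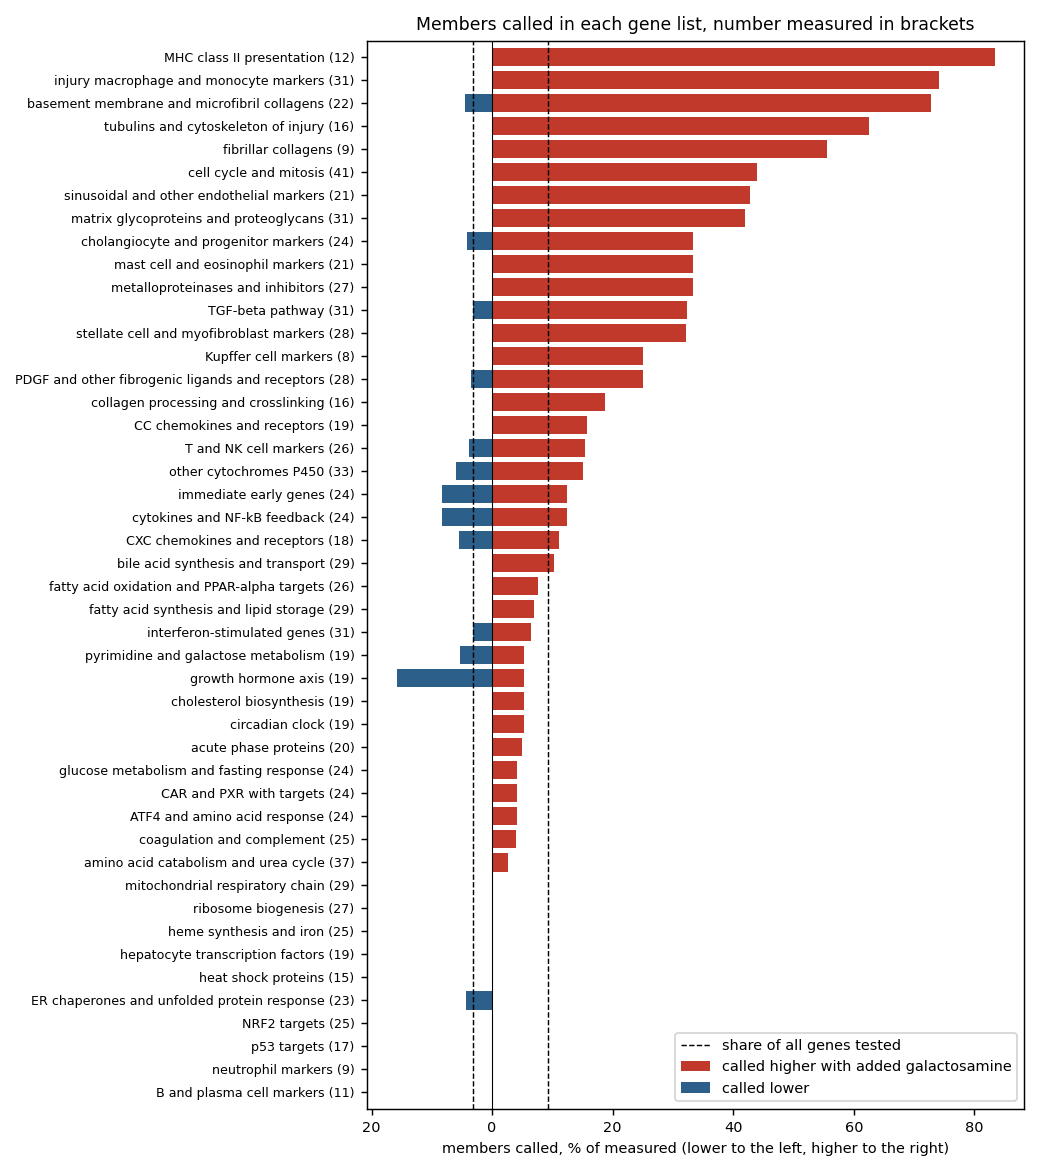
Share of measured members called higher (right) and lower (left) for each of 46 gene lists, in percent, with the number measured in brackets. Dashed lines give the share over all genes tested, 9.31% higher and 3.09% lower, and the MHC class II and macrophage lists reach farthest to the right.

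Macrophage genes rose broadly. Of 31 markers of injury macrophages and monocytes 23 were higher and 0 lower (median 1.04), and their summed linear signal was 10985 to 14598 in the combination rats and 6332 to 6984 in the nevirapine rats. After Mmp12 and Gpnmb the leaders were galectin 3 (Lgals3, 2.02 ± 0.35), the phagocyte oxidase subunit Cybb (1.70 ± 0.27) and the integrin chain Itgax (at least 2.50-fold). Lgals3 was at 9.92, 8.55 and 9.48 in the combination rats and at 7.39, 6.94 and 7.57 in the nevirapine rats. Rat 84 was the lowest combination rat in 22 of the 23, and in 542 of all 1323 higher calls. Nevirapine rats were below vehicle rats in this list. The mean log2 signal over all 31 markers was 6.71 to 6.80 in the nevirapine rats and 7.07 to 7.19 in the vehicle rats of 15 d. It was 7.52 to 8.02 in the combination rats. In 18 of the 23 every nevirapine rat lay below every vehicle rat of 15 d, and in 15 every combination rat lay above every vehicle rat. Over all 1323 higher calls these numbers were 631 and 926. Such calls were picked as higher than these nevirapine rats, so the counts favour low nevirapine values. Among 8 markers of resident Kupffer cells 2 were higher (25.0%, against 9.31% of all genes), Cd5l (1.14 ± 0.30) and Folr2 (1.05 ± 0.23). The Kupffer lectin Clec4f differed by 0.38 (adjusted p = 0.302). Neither call in the Kupffer list placed every combination rat above every vehicle rat, and Cd5l lost its call without rat 73 (adjusted p = 0.0994).

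The MHC class II genes, which present peptides to CD4 T cells, gave the highest share of any list, with 10 of 12 higher and 0 lower (median 1.37). RT1-Da was at 11.12, 10.14 and 10.79 in the combination rats and at 8.52, 8.12 and 8.25 in the nevirapine rats (2.39 ± 0.26, adjusted p = 5.2e-08, 5.23-fold). RT1-Bb (2.39 ± 0.28), RT1-Db1 (2.34 ± 0.26), RT1-Ba (2.27 ± 0.22) and the invariant chain Cd74 (2.27 ± 0.25) rose by about as much. Another RT1-Bb probe set changed by -0.22, other RT1-Ba probe sets by 0.40 to 2.32, and another of RT1-Db1 by 1.05. The peptide-exchange genes RT1-DMb and RT1-DMa, named after their values were seen, rose 2.83-fold and 2.34-fold. Ciita, the class II transactivator, did not pass the test, at 5.10, 5.05 and 5.00 in the combination rats and 4.86, 4.94 and 5.25 in the nevirapine rats (0.03, 95% interval -0.19 to 0.26), and was named after its value was seen. Its other probe set changed by 0.97. As in the macrophage list, rat 84 was the lowest combination rat, here in 10 of 10 called genes. Nevirapine rats were below vehicle rats here too. The mean log2 signal over the 12 genes was 6.44 to 6.60 in the nevirapine rats and 6.82 to 6.92 in the vehicle rats of 15 d. It was 7.48 to 8.18 in the combination rats. In 8 of the 10 called genes every nevirapine rat lay below every vehicle rat of 15 d. In 8 every combination rat lay above every vehicle rat. These 12 genes overlap in Ctss with the macrophage list.

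Class II promoters are known to share an X box and a Y box that bind a common complex. The 130 bases before the start are shown for 5 class II genes that rose and that hold the letters TGATTGG, by which they were chosen. They come from RefSeq (GRCr8) and run 5′ to 3′ on the gene's strand. Capitals mark TGATTGG, the core of the Y box, and AACNGATG, letters of the X box chosen with these sequences in view.
RT1-Da (chr20:4515285-4515414, plus strand): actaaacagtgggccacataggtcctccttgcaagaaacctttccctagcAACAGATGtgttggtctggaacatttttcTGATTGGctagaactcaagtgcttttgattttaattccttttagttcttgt
RT1-Db1 (chr20:4560163-4560292, minus strand): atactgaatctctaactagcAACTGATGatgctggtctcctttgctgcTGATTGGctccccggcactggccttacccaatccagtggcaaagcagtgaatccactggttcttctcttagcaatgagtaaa
RT1-Ba (chr20:4576927-4577056, plus strand): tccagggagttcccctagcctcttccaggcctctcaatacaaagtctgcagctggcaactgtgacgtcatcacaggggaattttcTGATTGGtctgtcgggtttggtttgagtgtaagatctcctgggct
RT1-Bb (chr20:4604119-4604248, minus strand): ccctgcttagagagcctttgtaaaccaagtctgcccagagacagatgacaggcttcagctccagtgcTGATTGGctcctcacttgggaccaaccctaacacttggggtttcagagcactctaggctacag
RT1-DMa (chr20:4712336-4712465, minus strand): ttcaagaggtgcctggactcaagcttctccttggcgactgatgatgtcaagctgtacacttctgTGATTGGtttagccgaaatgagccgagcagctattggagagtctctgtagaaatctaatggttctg
The motif TGATTGG began 51 bases before the start in RT1-Da, 82 in RT1-Db1, 45 in RT1-Ba, 63 in RT1-Bb and 66 in RT1-DMa. Of 12 measured class II genes 9 had a promoter in the table, and these 5 held it. Cd74, which rose by as much as RT1-Ba, held neither motif in its window. On either strand it was found in the 250 bases before the start of 2149 of 33469 promoters (6.42%), and AACNGATG in 726 (2.17%). A match is a description of the letters and not a measured site.

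Mast cell genes lay near background without added galactosamine. Of 21 mast cell and eosinophil markers 7 were higher and 0 lower, while 11 lay under the background level in both groups (median 0.11). Mcpt10 was at 5.38, 5.51 and 4.97 in the combination rats and at 2.35, 2.54 and 2.47 in the nevirapine rats, at least 1.89-fold higher (adjusted p = 2.36e-08). Chymase (Cma1) was at 5.37, 5.71 and 5.87 in the combination rats and at 3.02, 3.54 and 3.58 in the nevirapine rats, at least 2.43-fold higher (adjusted p = 3.97e-11). Mast cell protease 1 (Mcpt1) rose by 2.10 ± 0.26 and carboxypeptidase A3 (Cpa3) by 2.00 ± 0.29. The eosinophil chemokine Ccl11 was at least 1.45-fold higher, a call lost without rat 87 (adjusted p = 0.0982). All 7 called members had every combination rat above every vehicle rat of 15 d, and the summed linear signal of the 21 was 784 to 937 in the combination rats and 387 to 425 in the nevirapine rats. With the dimmest 40% of genes left out, 3 of the 21 were tested and 1 was called.

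Other leukocyte lists moved less. Of 26 T and NK cell markers 4 were higher and 1 lower (15.4% and 3.85%, against 9.31% and 3.09% of all genes). In both groups 12 of the 26 lay under the background level. The T cell coreceptor Cd8a was at 4.82, 3.93 and 4.83 in the combination rats and 3.62, 3.43 and 3.36 in the nevirapine rats (adjusted p = 0.00179). Its other probe sets changed by -0.16 and 0.54. With the dimmest 40% of genes left out, 3 of the 26 were tested and 0 called. Perforin (Prf1) rose by 0.77 ± 0.24 (adjusted p = 0.0257), a call lost without rat 73, 44 or 45 (adjusted p up to 0.193). None of 11 B and plasma cell markers or of 9 neutrophil markers passed the limma test, and 6 and 8 of these lay under the background level in both groups. The summed B and plasma cell signal was 2468 to 2811 in the combination rats and 3260 to 3356 in the nevirapine rats, nearly all of it from Xbp1, a secretory cell factor that is also in the ER list. Without Xbp1 the sum was 253 to 308 in the combination rats and 240 to 266 in the nevirapine rats. The neutrophil sum was 205 to 523 in the combination rats and 131 to 184 in the nevirapine rats, and without Lcn2, which is also an acute phase gene, it was 80 to 82 in the combination rats and 70 to 81 in the nevirapine rats.

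Among chemokine genes Cxcr4 (3.12-fold), a homing receptor, and Cxcl16 (2.83-fold), a ligand made by macrophages and endothelium, rose, the 2 higher calls of 18 CXC genes (11.1%, against 9.31% of all genes), with 1 lower. Of 19 CC genes 3 were higher (15.8%). Ccl5 was at 7.70, 6.87 and 6.97 in the combination rats and at 6.36, 6.66 and 6.24 in the nevirapine rats, while the vehicle rats of 15 d averaged 7.60. The Ccl5 call (adjusted p = 0.0212) was lost without rat 73, 43 or 45 (adjusted p up to 0.194). Interleukin 1 beta (Il1b) rose by 1.07 ± 0.31 (adjusted p = 0.0167), a call lost without rat 73, 87 or 43 (adjusted p up to 0.127), and the macrophage growth factor Csf1 fell by 0.71 ± 0.13. Csf1 lost its call when its probe sets were averaged (adjusted p = 0.266). Interferon-stimulated genes gave 2 higher and 1 lower call among 31, 6.45% higher against 9.31% over all genes. Ifitm1 rose by 1.12 ± 0.20, whereas Bst2 was at 10.65, 10.26 and 10.27 in the combination rats and at 11.41, 11.34 and 11.24 in the nevirapine rats (-0.94 ± 0.18, adjusted p = 0.000389).

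Genes of the cell cycle were higher, and 1 rat carried most of the size. Of 41 cell cycle and mitosis genes 18 were higher and 0 lower (median 0.68). Cyclin A2 (Ccna2) was at 4.46, 4.74 and 7.03 in rats 73, 84 and 87, and at 3.23, 2.90 and 3.14 in the nevirapine rats. The proliferation antigen Mki67 was at 5.06, 4.76 and 7.09 in the combination rats and at 3.41, 3.32 and 3.57 in the nevirapine rats. Rat 87 was the highest rat in 18 of the 18 genes, and in each of the 18 every combination rat lay above every vehicle rat of 15 d. Without rat 87, 5 of the 41 were called. Cdk1 (2.20 ± 0.48), Bub1 (at least 1.84-fold) and Ube2c (1.70 ± 0.37), which act in mitosis, were also higher. Without rat 87 the adjusted p was 0.0532 for Cdk1, 0.18 for Bub1 and 0.0857 for Mki67. Of 16 tubulin and cytoskeleton genes 10 were higher and 0 lower, led by stathmin (Stmn1), at 8.34, 8.40 and 9.34 in the combination rats and 7.14, 7.17 and 7.23 in the nevirapine rats. Lists thus differed in which combination rat stood highest: rat 87 in the mitotic genes, and rat 73 in 16 of the 23 macrophage genes and 9 of the 10 class II genes. Over all 1323 higher calls rat 73 was highest in 330, rat 84 in 340 and rat 87 in 653.

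**Figure D3:**
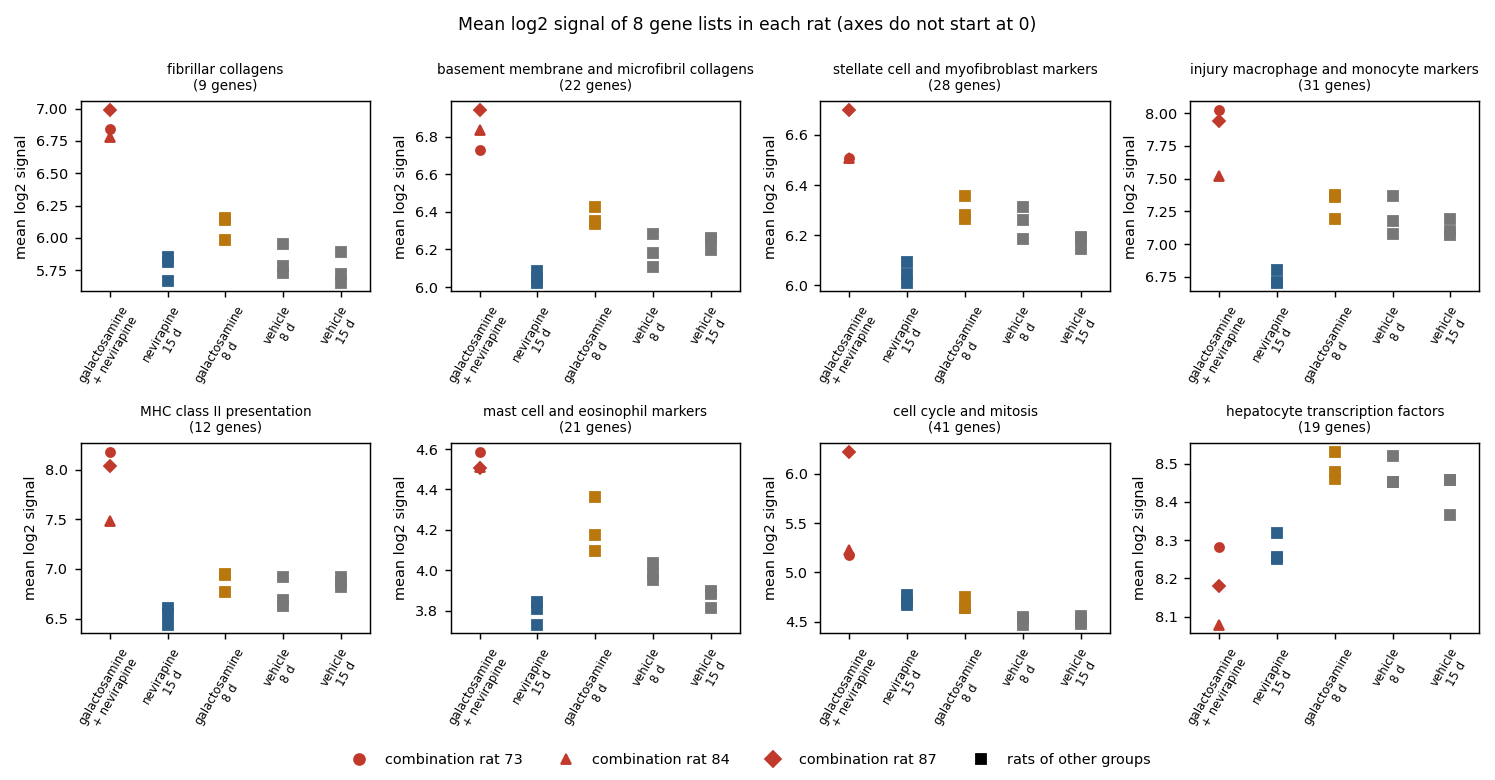
Mean log2 signal over all measured members of 8 gene lists, 1 point per rat, for the combination, nevirapine, galactosamine, and vehicle at 8 d and 15 d. The combination rats have their own symbols, with rat 84 (triangle) lowest in the macrophage and class II panels and rat 87 (diamond) highest in the cell cycle panel, where the rats' means are 5.18, 5.23 and 6.22.

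Endothelial and bile duct markers were in part higher than in the nevirapine rats. Of 21 endothelial markers 9 were higher and 0 lower (median 0.36), led by von Willebrand factor (Vwf, 1.14 ± 0.21), the receptor Tie1 (0.88 ± 0.16) and the sinusoidal scavenger receptor Stab2 (0.80 ± 0.17). After cyclic loess normalization 5 were higher, and without rat 84 also 5. Vwf was at 6.62, 7.49 and 7.61 in the combination rats and at 6.17, 6.03 and 6.10 in the nevirapine rats, with rat 73 nearest to them. Stab2 averaged 9.31 in the combination rats and 8.52 in the nevirapine rats, against 8.94 in the vehicle rats of 15 d. The mean log2 signal over the 21 markers was 7.17 to 7.40 in the combination rats and 6.83 to 6.96 in the nevirapine rats. In the vehicle rats of 15 d it was 7.13 to 7.18. In 7 of the 9 calls every nevirapine rat lay below every vehicle rat of 15 d. In 5 every combination rat lay above every vehicle rat, and in 2 the combination mean was below the vehicle mean. Of 24 cholangiocyte and progenitor markers 8 were higher and 1 lower (33.3% and 4.17%, against 9.31% and 3.09% of all genes), with a median of 0.28. The transcription factor Sox4 rose by 1.43 ± 0.38, gamma-glutamyltransferase (Ggt1) by 1.29 ± 0.28, Cd24 by 1.29 ± 0.27 and the water channel Aqp1 by 1.13 ± 0.30. The other 6 probe sets of Sox4 changed by -0.58 to 0.88, with at least 1 called lower, and the mean of its probe sets changed by 0.35. Sox4 lost its call without rat 87 (adjusted p = 0.0593) and Aqp1 without rat 84 (adjusted p = 0.0527). The duct keratin Krt19, named after its value was seen, was at 4.55, 4.79 and 4.55 in the combination rats and 4.23, 4.35 and 4.34 in the nevirapine rats (adjusted p = 0.672).

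Hepatocyte functions moved in few genes. Of 29 genes of bile acid synthesis and transport 3 were higher (10.3%, near the 9.31% of all genes) and 0 lower. These were Cyp7a1, the steroid 5-beta-reductase Akr1d1 (0.87 ± 0.15) and Hsd3b7 (0.47 ± 0.16). Akr1d1 was at 10.70, 10.73 and 10.54 in the combination rats and at 9.79, 9.82 and 9.75 in the nevirapine rats. Hsd3b7 lost its call without each rat in turn (adjusted p up to 0.163). Of 24 genes under the xenobiotic receptors CAR and PXR 1 was called, as higher (4.17%, under the 9.31% of all genes). This was Cyp3a2, a P450 of steroid and drug oxidation, at 11.35, 12.23 and 11.18 in the combination rats and 8.06, 9.93 and 9.25 in the nevirapine rats (2.50 ± 0.75, adjusted p = 0.0214). The call was lost without rat 84 or rat 43 (adjusted p = 0.104 and 0.139). Of 33 other P450 genes 5 were higher and 2 lower (15.2% and 6.06%, against 9.31% and 3.09% of all genes). Cyp2a3, at 6.45, 7.70 and 6.95 in the combination rats and 4.74, 4.94 and 5.08 in the nevirapine rats, rose by 2.11 ± 0.26. Cyp2u1 rose by 1.40 ± 0.17 and Cyp4b1 by 0.97 ± 0.17. Cyp2a2 fell by 1.06 ± 0.36, a call lost without any rat but rat 45 (adjusted p up to 0.221).

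The growth hormone axis had the highest share of lower calls, 3 of 19 (15.8%, against 3.09% of all genes), with 1 higher (5.26%). Igfals, the subunit that keeps IGF1 in the circulation, was at 8.30, 7.23 and 7.92 in the combination rats and 8.81, 8.54 and 8.87 in the nevirapine rats (-0.93 ± 0.30, adjusted p = 0.0323). The prolactin receptor (Prlr) fell by 0.93 ± 0.28 and Igf1 by 0.65 ± 0.20, and the binding protein Igfbp3 rose by 0.72 ± 0.25. Each of these 4 calls was lost without rat 84, with changes of -0.63, -0.90, -0.38 and 0.54, and the adjusted p reached 0.248 for Igfals, 0.0809 for Prlr, 0.276 for Igf1 and 0.246 for Igfbp3 over the rats left out. The lists of p53 targets (17 genes), NRF2 targets (25), heat shock proteins (15), hepatocyte transcription factors (19), heme and iron genes (25), ribosome biogenesis (27) and the respiratory chain (29) had 0 calls with limma. The acute phase list had 1 of 20, alpha-2-macroglobulin (A2m, adjusted p = 0.0481), a call lost without each rat in turn (adjusted p up to 0.171).

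The largest falls were fewer and mixed in kind. The plasma glycoprotein A1bg was at 6.25, 6.52 and 6.91 in the combination rats and at 11.15, 9.37 and 11.27 in the nevirapine rats (-4.04 ± 1.18, adjusted p = 0.0175). It was also at 7.84 in 1 of the 3 rats given galactosamine alone, and at 8.33, 8.80 and 11.70 in the vehicle rats of 15 d. Its call was lost without rat 73, 43 or 45 (adjusted p up to 0.0791). The endothelial proteoglycan Esm1 was at 3.06, 2.68 and 2.61 in the combination rats and at 5.09, 5.26 and 4.82 in the nevirapine rats, at least 1.61-fold lower. The aldo-keto reductase Akr1b7 fell by 1.88 ± 0.42 and the guidance factor Sema3c by 1.81 ± 0.41. Sema3c was at 7.59, 5.89 and 6.25 in the combination rats and 8.30, 8.33 and 8.51 in the nevirapine rats, while the vehicle rats of 15 d averaged 5.73, so that the nevirapine rats were the high group. The cytokine receptor Lifr (-1.53 ± 0.44), Prelid2 (-1.29 ± 0.26) and the homeobox factor Cux2 (-1.23 ± 0.35) followed. Lifr lost its call without rat 87 or 45 (adjusted p = 0.0721 and 0.0894) and Cux2 without rat 84, 43 or 45 (adjusted p up to 0.134). Dab1, ranked between Lifr and Prelid2, lay under the background level in both groups and is given no size. G0s2, an inhibitor of fat breakdown, was at 9.14, 8.09 and 8.36 in the combination rats and at 9.93, 9.49 and 9.52 in the nevirapine rats (-1.12 ± 0.29), and the prostaglandin E receptor Ptger3 fell by 1.10 ± 0.27. Both lost their call without rat 84, and G0s2 also without rat 43 (adjusted p up to 0.0774 for G0s2 and 0.0553 for Ptger3). Pcf11 fell by 1.20 ± 0.20 and Elapor1 by 1.18 ± 0.26, and Med13 was at least 1.80-fold lower. Rnft1 fell by 1.06 ± 0.12 (adjusted p = 8.35e-08), while the vehicle rats of 15 d averaged 5.86 against 6.47 in the nevirapine rats. Other probe sets changed by 0.21 (Pcf11), -0.04 (Med13) and -0.37 (Rnft1). Pcf11 lost its call when its probe sets were averaged (adjusted p = 0.112).

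Few differences passed the test 8 d after the same injection without nevirapine, which with 3 against 3 rats does not show that others were absent. Galactosamine against vehicle at 8 d, in 6 other rats, called 5 of 14217 genes (0.0352%) with limma, and 846 had an unadjusted p under 0.05. Without the lowest-numbered galactosamine rat it called 67 genes, and without any 1 of the other 5 rats 0 to 2. Col1a1 averaged 6.36 in galactosamine rats and 5.72 in vehicle rats of 8 d, a log2 difference of 0.64 (adjusted p = 0.915). The test of the difference between the effects with and without nevirapine called 401 genes (2.82%). In 291 the change after galactosamine was more positive with nevirapine than without (2.05%), and in 110 it was more negative (0.774%). Any difference in early nevirapine dose between the combination and nevirapine rats cannot be told apart from these differences. Leaving out 1 of the 12 rats gave 107 genes (without vehicle rat 100) to 501 (without combination rat 73), and 114 without rat 87. It called RT1-Da (2.06 ± 0.37) and Gpnmb (2.40 ± 0.50), and also Postn, Mmp12, Mcpt10 and Ccna2, whose other groups lay near or under background. Col1a1 (1.28 ± 0.56, adjusted p = 0.216) and Lox (adjusted p = 0.0654) did not pass it. By list, a more positive change with nevirapine was called in 7 of 12 class II genes and 7 of 31 macrophage genes. Among 9 fibrillar collagens it was called in 1, Col5a2 (2.07 ± 0.60). Mcpt1 was at 5.77, 6.41 and 5.57 in galactosamine rats and 4.64, 5.04 and 4.63 in vehicle rats of 8 d (1.14, adjusted p = 0.0725).

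**Figure D4:**
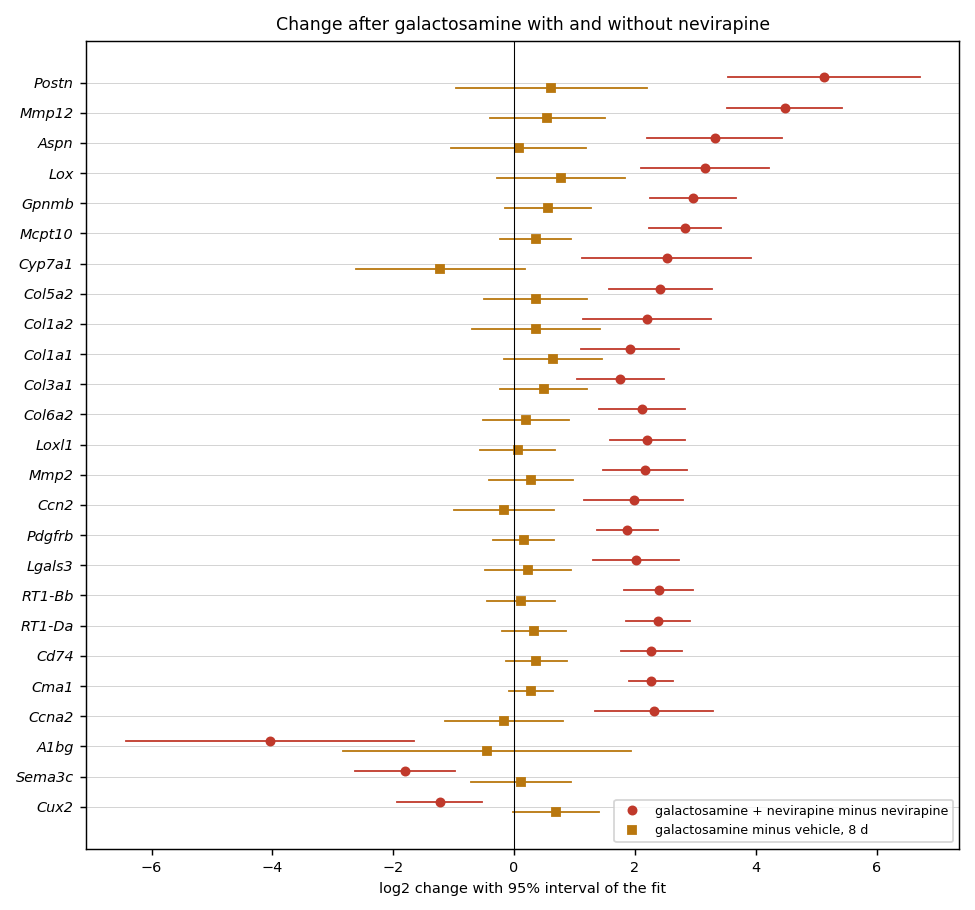
Log2 change with its 95% interval for 25 named genes, with combination minus nevirapine (circles, upper) and galactosamine minus vehicle at 8 d (squares, lower). RT1-Da lies at 2.39 and 0.33 and Col1a1 at 1.92 and 0.64. The points are fitted changes, which for genes with a group under background (Postn, Mmp12, Lox, Mcpt10, Cma1 and Ccna2) are no measured sizes.

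The levels reached at 8 d had different histories in the combination. RT1-Da averaged 10.72 at 3 h, 10.71 at 24 h, 10.46 at 48 h and 10.68 at 8 d after galactosamine, and Gpnmb averaged 10.15, 9.69, 9.81 and 10.06 at those times. All of these values lay above the nevirapine rats of 15 d. Nevirapine rats killed at 3 h, 24 h and 48 h were not set beside them. Whether galactosamine raised these genes at the early times was not tested. Mast cell genes had another course. Mcpt10 averaged 2.38 at 3 h, 2.31 at 24 h, 2.23 at 48 h and 5.29 at 8 d, and Cma1 averaged 3.55, 3.46, 3.64 and 5.65 at those times. Col1a1 averaged 6.92, 6.45, 6.77 and 7.83, and its 3 rats at 8 d, 7.75 to 7.90, lay above all 9 rats of the earlier times. Postn spread widely at the early times, from 3.37 to 7.27 at 3 h and from 2.80 to 6.71 at 48 h. These are levels of different rats, 3 at each time, and were not tested against each other. Rats of the earlier times had fewer days of nevirapine.

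**Figure D5:**
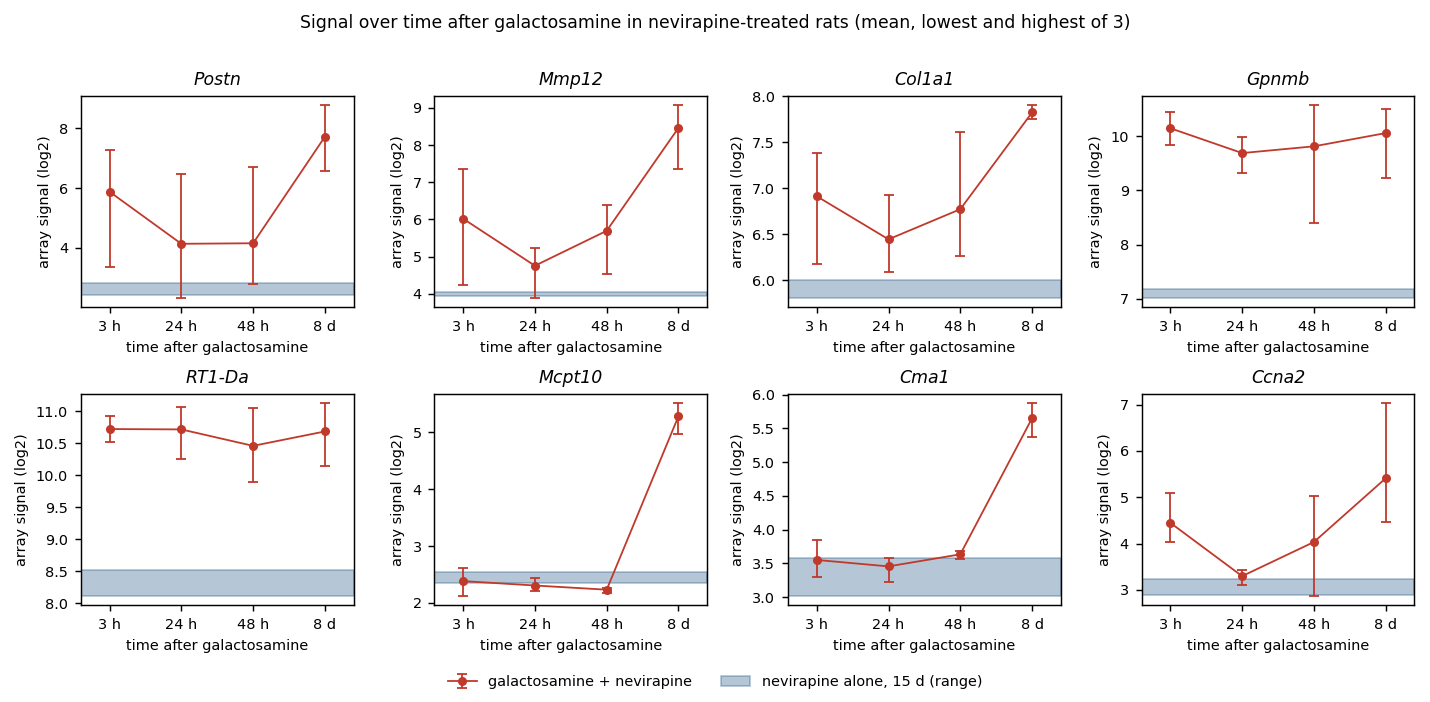
Mean array signal (log2) with the lowest and highest of 3 rats at 3 h, 24 h, 48 h and 8 d after galactosamine in rats on nevirapine, for 8 genes, with the range of the nevirapine rats of 15 d as a band. RT1-Da and Gpnmb lie above the band at every time, and Mcpt10 and Cma1 average 5.29 and 5.65 at 8 d, against at most 2.38 and 3.64 at the earlier times.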

How the data were processed

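Total RNA of snap-frozen liver was hybridised to Affymetrix rat arrays, 1 array per rat. The authors deposited log2 signals made with RMA (background correction, quantile normalization and probe summary), and limma is also named, per the submitters' processing notes; versions are not given in the sources used here. Array medians lay between 4.954 and 5.0927, so no further normalization was applied. Of 31099 probe sets, 436 had several symbols and 9837 none and were left out. Each gene was read from the probe set with the highest mean over all arrays.

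Limma 3.58.1 in R 4.3.3 fitted 1 mean for each of 17 groups over the 50 arrays with a shared variance, and p-values were adjusted over 14217 genes by Benjamini-Hochberg. Combination minus nevirapine, galactosamine minus vehicle at 8 d and the difference between these effects were tested, and an adjusted p under 0.05 was called. Tested on simulated data for combination minus nevirapine, the fit called 67% of 100 genes moved 1.5-fold and 93% of 100 moved 2-fold among 14217 genes. The simulated noise had the same spread in all groups for each gene, whereas the combination rats varied more than the nevirapine rats. These shares need not hold for the data. The members and gene lists were chosen with earlier results of these data known. Named genes were, of the called genes with no overlap between the rats, the 15 that rose most and the 15 that fell most, and the 5 largest changes of each list, and other genes are marked as chosen after their values were seen. Alternatives were another variance prior, probe set rule, normalization, filter on dim genes, array weights, a GAPDH covariate, only the compared arrays, and leaving out each rat. No depth applies to arrays, and 3 per group limit the precision.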

Additional observations from a re-analysis of the deposited data

Results flagged for a closer look

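The effect of galactosamine differed between rats with and without nevirapine in 401 genes by the limma interaction test. Any difference in early nevirapine dose between the combination and nevirapine rats cannot be told apart from this effect. The values here are log2 differences of the combination-minus-nevirapine change less the galactosamine-minus-vehicle change, for genes named in the text that this test called. For genes with a group under the background level they are fitted differences and not measured sizes. Among matrix genes they were 4.51 for Postn, 3.24 for Aspn, 2.94 for Col6a5, 2.30 for Mfap4, 2.15 for Loxl1, 2.07 for Col5a2, 1.92 for Col6a2, 1.89 for Mmp2, 1.57 for Col6a1, 1.51 for Plod2 and -0.68 for Lama1.

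Among fibrogenic and stellate cell genes they were 2.15 for Ccn2, 1.71 for Pdgfrb, 1.62 for Cygb, 1.30 for Ltbp1, 1.29 for Tgfb3 and 0.98 for Bambi. Macrophage and myeloid genes gave 3.93 for Mmp12, 2.40 for Gpnmb, 2.32 for Lilrb4, 1.79 for Lgals3, 1.66 for Cybb and 1.10 for Itgax. The class II genes gave 2.27 for RT1-Bb, 2.11 for RT1-Db1, 2.06 for RT1-Da, 2.03 for RT1-Ba, 1.90 for Cd74 and 1.39 for RT1-DMb. Other immune genes gave 2.48 for Mcpt10, 1.99 for Cma1, 1.20 for Cxcl16, 1.16 for Cxcr4, 1.05 for Ifitm1 and -0.77 for Csf1.

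Genes of dividing cells gave 2.96 for Hells, 2.57 for Ect2 and 2.50 for Ccna2. Endothelial and duct genes gave 1.05 for Vwf, 0.91 for Tie1 and 1.42 for Ggt1. Liver enzymes gave 3.75 for Cyp7a1, 2.33 for Cyp2a3, 1.35 for Cyp2u1 and 0.96 for Cyp4b1. The remaining genes gave 3.38 for Pbsn, 2.47 for Pcdh17, 1.00 for Ucp2, -0.80 for Rnft1 and -1.93 for Cux2.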

How the results depend on the processing

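Combination minus nevirapine called 1763 genes, 3547 with array weights and 1070 without the dimmest 40% of genes, and 1023 (without rat 87) to 1612 (without rat 73) with 1 rat left out. The other settings gave 1709 to 2432, the last over every probe set. The share of calls that were higher was 75.0%, and 63.4% after cyclic loess, with 1121 higher and 648 lower. Galactosamine minus vehicle called 5 genes, 293 with array weights, 10 with only the compared arrays, and 0 to 67 with 1 rat left out. The difference between the effects called 401 genes, 2076 with array weights, 1340 with only the compared arrays, 215 without the dimmest genes, and 107 to 501 with 1 rat left out. The dim filter tests fewer genes; the cause of the other shifts was not tested. Of 110 called genes checked, 46 kept their call under every setting. A further 28 kept it under every setting that tested them but were left out with the dimmest 40%. The call was lost under at least 1 setting for 36, and 0 of the 110 changed direction. For the other genes of the 127 checked, direction was compared only in settings that called them. No paired analysis was possible because the compared groups share no replicate numbers. Signals under the background level limit the sizes of dim genes.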

Other observations

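A few genes of lipid handling were higher in the combination rats. The fatty acid carrier Fabp4 was at 6.13, 6.23 and 6.85 in the combination rats and at 4.47, 3.83 and 4.40 in the nevirapine rats, at least 4.09-fold higher (limma adjusted p = 0.000186). Lipoprotein lipase (Lpl) was at 9.04, 9.81 and 9.67 in the combination rats and at 7.60, 8.09 and 7.87 in the nevirapine rats, a change of 1.65 ± 0.35. These were the 2 higher calls among 29 genes of fatty acid synthesis and lipid storage (6.90%, under the 9.31% of all genes). The mitochondrial carrier Ucp2 rose by 1.15 ± 0.19, with all 3 combination rats between 6.61 and 6.68.

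Immediate early genes gave 3 higher and 2 lower calls of 24 (12.5% and 8.33%, against 9.31% and 3.09% of all genes). Egr2 was at 6.24, 5.53 and 5.63 in the combination rats and at 4.13, 4.13 and 4.31 in the nevirapine rats, and its call was lost without rat 73 (limma adjusted p = 0.0602). Another Egr2 probe set changed by -0.05. Jun rose by 1.26 ± 0.40 (limma adjusted p = 0.0291), with adjusted p up to 0.114 when 1 rat was left out.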
